A study of Homo sapiens with 6 samples.

Results

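Expression of 10 growth factor receptors that mark melanoma cell states was examined in A375 cells, an established human melanoma line. The receptors were chosen by name, AXL, NGFR, EGFR, PDGFRA, PDGFRB, MET, ERBB3, KIT, FGFR1 and IGF1R, and all 10 were found among the 58302 gene IDs of the count tables. Bulk RNA sequencing was available for 3 libraries of A375 cells stably carrying an empty vector (EV) and 3 libraries of A375 cells with stable overexpression of HMGB2 (HMGB2OE), a chromatin protein that binds and bends DNA. Both lines were made by lentiviral transduction and drug selection and were otherwise untreated, and each group is 1 such line. The study describes the libraries of a group as technical replicates, so p-values measure the spread between cell pellets of a line and not between independent transductions.

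All members but NGFR are receptor tyrosine kinases. When a growth factor binds, paired receptors phosphorylate each other to recruit adaptors that feed the RAS–MAPK and PI3K pathways. NGFR, the p75 neurotrophin receptor, has no kinase and belongs to the tumour necrosis factor receptor family. In melanoma, high AXL, NGFR, EGFR and PDGFRB are known from poorly differentiated, neural crest-like or drug-tolerant states, whereas ERBB3 and KIT belong to the melanocytic lineage. A375 carries an activating BRAF mutation, so its MAPK pathway is driven below the receptors.

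The libraries were first compared with their labels. Reads assigned to genes numbered between 45925053 and 56755212. HMGB2 had between 7250 and 7729 normalized counts (counts divided by DESeq2 size factors) in EV libraries and between 14609 and 16848 in HMGB2OE libraries, so the overexpressed gene matched every label. Of 9 melanocytic and neural crest markers, S100B and MITF were well covered, MLANA had at most 11 normalized counts, and TYR and DCT at most 6. SOX10 was listed at 0, and PMEL and S100A1 kept under 10% of their stranded reads, since reads shared with an overlapping gene are set aside. The remaining marker, SOX9, is not described here. Of the 9 markers, 6 received an adjusted p in DESeq2 and none of these differed between groups at adjusted p under 0.05. The summed level of 3 immune markers was at most 0.170 TPM (transcript level per exon length, scaled to the library total) and that of 3 endothelial markers at most 0.932 TPM in any library. The 3 epithelial markers summed to between 24.6 and 33.0 TPM and the 3 fibroblast markers to between 17.0 and 33.8 TPM.

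EV replicate 3 lay apart from the other EV libraries. In a principal component analysis of the 6 libraries, the first axis held 52.7% of the variance. On it EV replicates 1 and 2 lay at -21.8 and -20.9. EV replicate 3 lay at 10.05, within the range of HMGB2OE replicates 1, 2 and 3 (6.78, 2.90 and 23.0). The first axis therefore did not separate the groups. On the second axis EV replicate 3 lay at 23.7, above every other library (-14.2 to 3.53). Among 16692 genes averaging at least 10 normalized counts, 34 were at least 4-fold higher in every HMGB2OE library than in EV replicates 1 and 2, and at 19 of them EV replicate 3 lay within 2-fold of the HMGB2OE range. Of 20 genes at least 4-fold lower, EV replicate 3 lay within 2-fold of the HMGB2OE range at 11. KRT5, a basal epithelial keratin, had 5.05 and 11.5 normalized counts in EV replicates 1 and 2 but 279 in EV replicate 3, against 250, 200 and 289 in HMGB2OE libraries. HMGB2OE replicate 3 had the most multimapped reads (10.6%, against 2.58% to 4.89% elsewhere). Receptor results are therefore given for all 6 libraries and for replicates 1 and 2 alone. That subset was chosen after these values were seen. Leaving out an EV library that lay near the HMGB2OE libraries can favour larger differences and lower adjusted p. Calls without EV replicate 3 are therefore no independent support for those over all 6 libraries.

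The question of how abundant each receptor transcript was, before any comparison of groups, was addressed with TPM, which is a level per exon length. AXL, the receptor for GAS6, had the highest level of the 10 receptors, at 424 ± 81.6 TPM in EV and 257 ± 33.0 TPM in HMGB2OE libraries (SD, n = 3). MET, the receptor for hepatocyte growth factor, followed with a mean of 97.4 TPM over the 6 libraries and ERBB3, a neuregulin receptor with a weak kinase, with 95.3 TPM, and the ranges of these neighbours overlapped. NGFR averaged 31.3 TPM and IGF1R, the receptor for insulin-like growth factors, 20.2 TPM, again with overlapping ranges. The levels of PDGFRB at 8.03 TPM, EGFR at 6.45 TPM and FGFR1 at 6.27 TPM could not be put in order from their ranges. PDGFRA lay at 1.09 TPM, below every library of FGFR1. KIT, the receptor for stem cell factor, was at the limit of detection, with 29 reads over all 6 libraries and 0.0301 TPM. With the length of the longest transcript in place of all exons, MET and ERBB3 changed places and FGFR1 moved from rank 8 to rank 6.

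AXL and NGFR were lower with HMGB2 overexpression, by 38.1% and 52.0%, and none of the other 8 receptors passed the test in either direction. In bulk RNA, fewer cells with a transcript and less transcript per cell cannot be told apart. A call is a Benjamini-Hochberg adjusted p under 0.05 over all genes tested in DESeq2. By this rule 2.64% of all genes tested were called lower and 2.29% higher. None of the other 8 receptors had an unadjusted p under 0.05 in DESeq2, and edgeR called the same 2 receptors. Over all genes edgeR called 255 lower and 215 higher, where DESeq2 called 498 and 432. The number of genes that edgeR tested is not given here. The median log2 fold change was -0.18 over the 10 receptors and 0.00 over all 18836 genes tested.

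AXL (ENSG00000167601, hg38 chromosome 19, 41219223 to 41261766, plus strand) encodes a TAM family kinase known from invasive melanoma and from tolerance to BRAF inhibitors. It had 32516, 32382 and 24517 normalized counts in EV replicates 1, 2 and 3 and 19132, 19646 and 16596 in HMGB2OE replicates 1, 2 and 3. Every HMGB2OE library lay below every EV library, and replicate 3 was the lowest library of each group. The log2 fold change was -0.69 (± 0.14 SE, adjusted p = 8.58e-05 in DESeq2). In replicates 1 and 2 alone it was -0.74 (± 0.06 SE, adjusted p = 3.54e-38 in DESeq2).

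NGFR (ENSG00000064300, chromosome 17, 49495293 to 49515008, plus strand) marks neural crest-like melanoma cells. It had 2911, 2473 and 1846 normalized counts in EV libraries and 1089, 1307 and 1071 in HMGB2OE libraries. The groups did not overlap, and the lowest EV library was again replicate 3. The log2 fold change was -1.06 (± 0.18 SE, adjusted p = 2.98e-07 in DESeq2) and -1.17 (± 0.11 SE, adjusted p = 1.71e-23 in DESeq2) in replicates 1 and 2 alone. Part of NGFR overlaps other annotated genes. It kept 77.8% of its stranded reads, and 23.0% of its 50-base words also occur in other transcripts, among them those of NGFR-AS1. With the sum of the stranded columns the log2 fold change of NGFR was -1.06 (± 0.17 SE, adjusted p = 6.22e-08 in DESeq2), so adding the reads set aside changed it little. That sum may include reads of a gene on the other strand, and it does not address the shared words. AXL kept 91.9% of its stranded reads. Both calls held under all 14 alternatives, with the highest adjusted p under edgeR (0.0257 for AXL and 0.0150 for NGFR).

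**Figure D1:**
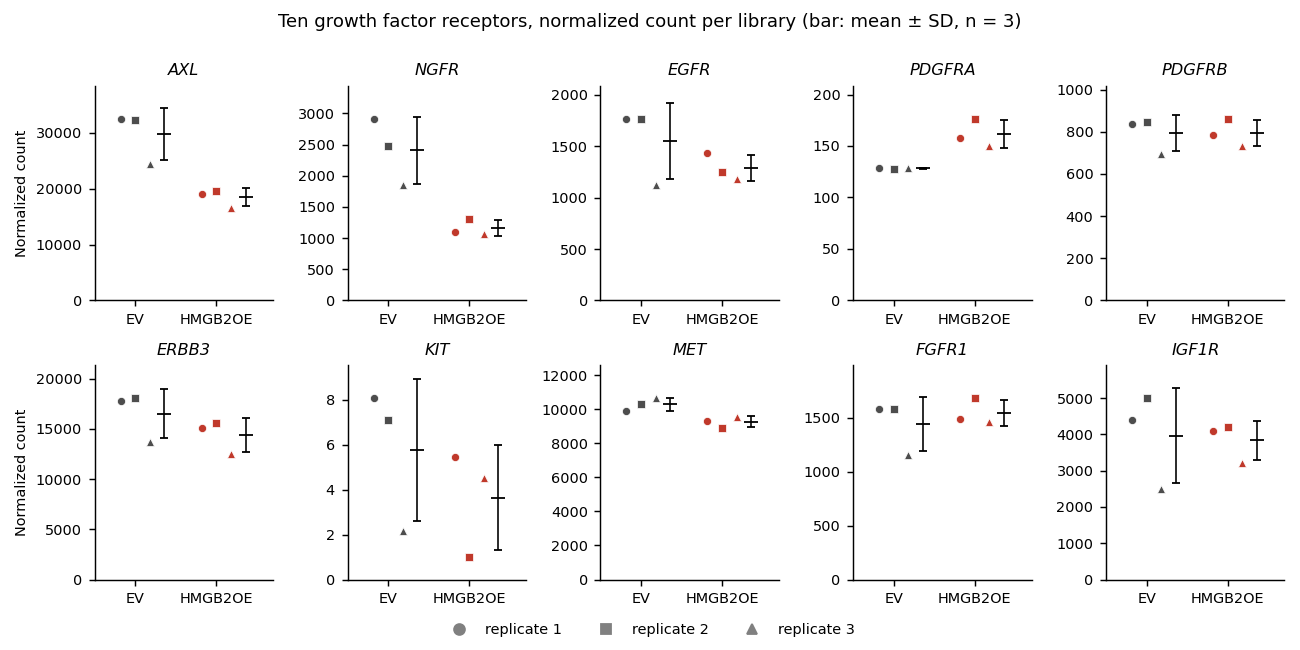
Normalized counts (y axis, from 0) of the 10 receptors in each library of the EV (grey) and HMGB2OE (red) groups, with the mean and SD (n = 3) beside the points and 1 symbol per replicate number. AXL and NGFR are lower in all 3 HMGB2OE libraries, PDGFRA and MET are separated by small amounts, and EV replicate 3 lies below the other EV libraries for AXL, NGFR, EGFR, PDGFRB, ERBB3, KIT, FGFR1 and IGF1R.

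EGFR (chromosome 7, 55019017 to 55211628), the receptor for EGF and TGFA, had 1766, 1767 and 1123 normalized counts in EV libraries and 1434, 1250 and 1184 in HMGB2OE libraries. EV replicate 3 lay below all HMGB2OE libraries and the other EV libraries above them. The log2 fold change over all libraries was -0.27 (95% interval -0.63 to 0.09, DESeq2 adjusted p = 0.579). Without EV replicate 3 it was -0.45 (± 0.11 SE, adjusted p = 0.00115 in DESeq2), and in replicates 1 and 2 alone -0.39 (± 0.10 SE, adjusted p = 0.00124 in DESeq2), so the call of EGFR depended on this library.

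The platelet-derived growth factor receptors did not pass the test. PDGFRA (chromosome 4, 54229280 to 54298245) had 128, 128 and 129 normalized counts in EV libraries and 158, 176 and 150 in HMGB2OE libraries. The groups did not overlap, but with 877 reads in all the log2 fold change of 0.33 had a 95% interval of -0.03 to 0.70 (DESeq2 adjusted p = 0.43), and 15.4% of its 50-base words are shared with other transcripts. PDGFRB (chromosome 5, 150113839 to 150155872) had 838, 847 and 695 normalized counts in EV libraries and 787, 861 and 734 in HMGB2OE libraries. Its log2 fold change was 0.00 (95% interval -0.27 to 0.27).

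The receptors of the melanocytic lineage were examined next. ERBB3 (chromosome 12, 56076799 to 56103505) had 17766, 18061 and 13690 normalized counts in EV libraries and 15127, 15538 and 12444 in HMGB2OE libraries. Replicate 3 was the lowest library in both groups, and HMGB2OE replicates 1 and 2 lay between EV replicate 3 and the other EV libraries. Over all libraries the log2 fold change was -0.20 (95% interval -0.49 to 0.09, DESeq2 adjusted p = 0.617). It became a call without EV replicate 3 (-0.32, DESeq2 adjusted p = 0.0168) and with the replicate number as a block (-0.20, DESeq2 adjusted p = 0.0349). The same held with a term for the replicates numbered 3 (-0.20, DESeq2 adjusted p = 0.00493) and in replicates 1 and 2 alone (-0.22, DESeq2 adjusted p = 0.00126). KIT (chromosome 4, 54657267 to 54740783) had between 1 and 8 reads per library, and a difference was not detectable at this depth (log2 fold change -0.67, 95% interval -2.65 to 1.31).

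MET (chromosome 7, 116672196 to 116798377) had 9904, 10330 and 10665 normalized counts in EV libraries and 9321, 8920 and 9575 in HMGB2OE libraries. The groups did not overlap and the difference was small, with a log2 fold change of -0.15 (95% interval -0.33 to 0.02, DESeq2 adjusted p = 0.471). EV replicate 3 was the highest EV library for MET, unlike for AXL, NGFR and ERBB3. FGFR1 (chromosome 8, 38400215 to 38468834), a fibroblast growth factor receptor, had 1586, 1584 and 1152 normalized counts in EV libraries and 1494, 1684 and 1461 in HMGB2OE libraries, a log2 fold change of 0.10 (95% interval -0.20 to 0.40). IGF1R (chromosome 15, 98648539 to 98964530) had 4383, 5000 and 2490 normalized counts in EV libraries and 4086, 4206 and 3211 in HMGB2OE libraries. Its groups overlapped widely, and the log2 fold change was -0.05 (95% interval -0.49 to 0.40).

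Of the 9 receptors averaging at least 10 normalized counts, 4 had no overlap between groups (AXL, NGFR, PDGFRA and MET), against 22.8% of all such genes. In replicates 1 and 2 alone 4 receptors were called lower (AXL, NGFR, EGFR and ERBB3) and none higher, where 9.44% of all genes tested were called lower and 8.01% higher. MET (log2 fold change -0.15, DESeq2 adjusted p = 0.0867) and IGF1R (-0.18, DESeq2 adjusted p = 0.110) did not pass the test in these 4 libraries. No receptor of the 10 was called higher under any alternative tried.

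**Figure D2:**
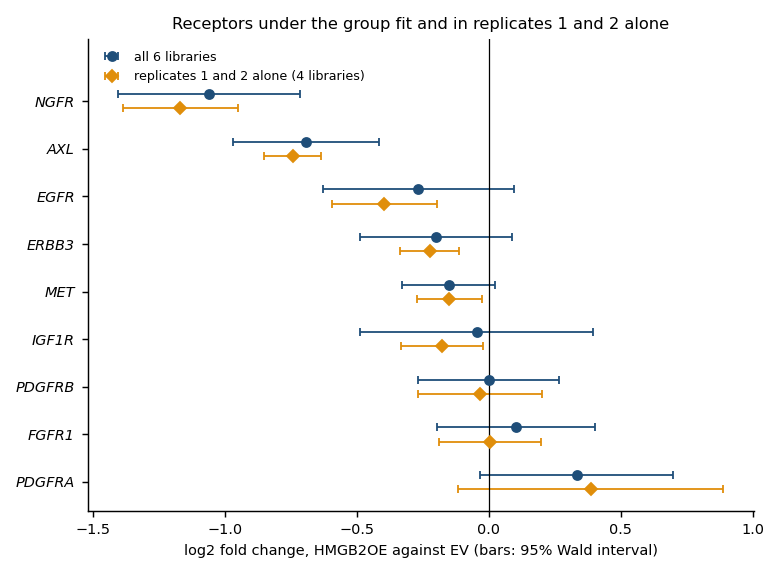
Log2 fold change of HMGB2OE against EV (x axis) for the receptors other than KIT, with 95% Wald intervals, fitted over all 6 libraries (blue circles) and in replicates 1 and 2 alone (orange diamonds). The intervals of NGFR and AXL lie below 0 in both fits, and those of EGFR, ERBB3, MET and IGF1R, unadjusted, lie below 0 in replicates 1 and 2 alone.

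The promoters of AXL, the most abundant of the 10 receptors, and of MET, which shared the next level with ERBB3, are shown since AXL was called and MET was not. Both are the 250 bases before the RefSeq start site on GRCh38.p14, plus strand, at chr19:41218973-41219222 for AXL and chr7:116671946-116672195 for MET. Capitals mark the GC box GGGCGG, searched on both strands.
AXL: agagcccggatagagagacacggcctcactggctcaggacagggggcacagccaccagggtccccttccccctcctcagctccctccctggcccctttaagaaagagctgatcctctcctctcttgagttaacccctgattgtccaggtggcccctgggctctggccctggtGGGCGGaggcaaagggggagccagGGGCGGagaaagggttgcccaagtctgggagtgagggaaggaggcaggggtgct
MET: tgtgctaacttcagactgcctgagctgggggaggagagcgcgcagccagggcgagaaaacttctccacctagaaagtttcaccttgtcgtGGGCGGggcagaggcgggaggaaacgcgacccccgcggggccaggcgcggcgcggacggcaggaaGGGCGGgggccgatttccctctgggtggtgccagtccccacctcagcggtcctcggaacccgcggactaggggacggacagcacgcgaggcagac
Each window held 2 GC boxes, a motif found in 42.3% of 27305 promoter windows of the same length. The AXL window held 4 CpG dinucleotides and the MET window 24, where the median window held 11. Promoter windows were matched for 7 of the 10 receptors and not for NGFR, ERBB3 and FGFR1, so AXL was the only called receptor with a window. The AP-1 motif TGANTCA (6.6% of all windows) occurred in the window of PDGFRA. The TEAD motif GGAATG (11.9%) and the E-box CACGTG (6.49%) occurred in none of the 7. All motifs were searched on both strands. CpG counts of the other windows were 25 for EGFR, 8 for PDGFRA, 9 for PDGFRB, 34 for KIT and 48 for IGF1R.

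The wider family of receptor tyrosine kinases was compared with the members. Of 49 other human receptor tyrosine kinases, 44 received an adjusted p, and 4 were called higher and 4 lower. Over all genes tested, 2.29% were called higher and 2.64% lower. Their median log2 fold change was 0.06. EPHA2 and DDR2, called lower, were among the most abundant kinases of the family, whereas KDR and EPHB1, also called lower, were scarce. EPHA5, EPHA7, EPHB6 and NTRK2, called higher, averaged 3.17 TPM or less in HMGB2OE libraries.

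EPHA2 (chromosome 1, 16124337 to 16156069), an ephrin-A receptor known from melanoma invasion, had the highest level of all 58 receptor tyrosine kinases, with 729 ± 153 TPM in EV and 433 ± 71.4 TPM in HMGB2OE libraries (SD, n = 3). It had 48250, 41541 and 34121 normalized counts in EV libraries and 25187, 28036 and 21933 in HMGB2OE libraries, with no overlap. Its log2 fold change of -0.72 (± 0.15 SE, adjusted p = 0.000192 in DESeq2) was called under every alternative tried. DDR2 (chromosome 1, 162631373 to 162787405), a collagen receptor, had 19125, 19557 and 14608 normalized counts in EV libraries and 13601, 11857 and 9491 in HMGB2OE libraries. Its log2 fold change was -0.61 (± 0.17 SE, adjusted p = 0.00812 in DESeq2), and the call was lost under edgeR (0.0810) and without EV replicate 1 (0.120) or 2 (0.0919) or HMGB2OE replicate 3 (0.108). The TPM summed over the 58 kinases was 2084, 1939 and 1475 in EV libraries and 1335, 1455 and 1119 in HMGB2OE libraries. EPHA2 made up 39.6 ± 2.08% of that sum in EV and 33.1 ± 1.33% in HMGB2OE libraries and AXL 23.1 ± 0.862% and 19.7 ± 0.142% (SD, n = 3).

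KDR, a vascular endothelial growth factor receptor, fell from 111 ± 19.7 to 51.6 ± 5.11 normalized counts (SD, n = 3), a log2 fold change of -1.11 (± 0.26 SE, adjusted p = 0.00115 in DESeq2), and lost its call without EV replicate 2 (adjusted p 0.105). EPHB1, an ephrin-B receptor, fell by 0.68 on the log2 scale (± 0.20 SE, adjusted p = 0.0239 in DESeq2). Its call was lost under edgeR (0.0905) and without EV replicate 1 (0.407) or 2 (0.146) or HMGB2OE replicate 1 (0.126), 2 (0.0781) or 3 (0.246).

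EPHA7, an ephrin-A receptor of the developing nervous system, rose from 294, 315 and 333 normalized counts in EV libraries to 633, 747 and 822 in HMGB2OE libraries. Its log2 fold change of 1.22 (± 0.15 SE, adjusted p = 2.22e-13 in DESeq2) was called under every alternative. EPHB6, an ephrin receptor without kinase activity, had 35.4, 39.9 and 91.2 normalized counts in EV libraries and 163, 135 and 149 in HMGB2OE libraries (log2 fold change 1.43, SE 0.34, DESeq2 adjusted p = 0.00124, edgeR adjusted p 0.0567). EPHA5, known from axon guidance, rose by 1.98 on the log2 scale from a mean of 6.36 normalized counts (± 0.57 SE, adjusted p = 0.0146 in DESeq2). NTRK2, the receptor for brain-derived neurotrophic factor, had 73.7, 70.9 and 66.5 normalized counts in EV libraries and 120, 125 and 135 in HMGB2OE libraries (log2 fold change 0.85, SE 0.22, DESeq2 adjusted p = 0.00468). The calls of EPHA5 and NTRK2 were lost on leaving out any 1 library other than EV replicate 3. The adjusted p of EPHA5 was then 0.164 and 0.203 without EV replicates 1 and 2 and 0.105, 0.15 and 0.261 without HMGB2OE replicates 1, 2 and 3. That of NTRK2 was 0.0813 and 0.0910 without EV replicates 1 and 2 and 0.0855, 0.110 and 0.132 without HMGB2OE replicates 1, 2 and 3. NTRK2 was also not called in replicates 1 and 2 alone (DESeq2 adjusted p = 0.0756), where EPHA5 received no adjusted p.

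Among the 49 kinases outside the 10 receptors, EPHA3 followed EPHA2 and DDR2 in level, with 53.0 TPM and a log2 fold change of 0.16 (95% interval -0.03 to 0.36). ERBB2, the signalling partner of ERBB3, had a log2 fold change of -0.01 (95% interval -0.37 to 0.35) and kept 48.3% of its stranded reads, which may include reads of a gene on the other strand.

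**Figure D3:**
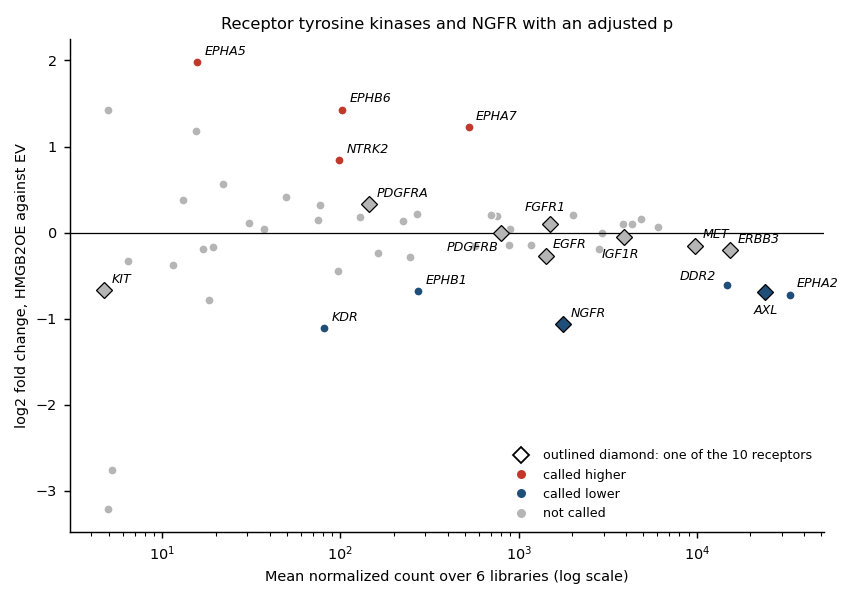
Log2 fold change of HMGB2OE against EV (y axis) against mean normalized count over the 6 libraries (x axis, log scale) for the receptor tyrosine kinases and NGFR that received an adjusted p. Diamonds with a black outline are the 10 receptors, and blue, red and grey points were called lower, called higher and not called, with EPHA2, AXL and DDR2 at the abundant end among those called lower.

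Ligands of the 10 receptors were compared to see whether the other side of each pair moved. Of 41 ligand genes, 26 received an adjusted p, of which 1 was called lower and none higher, also by edgeR, with a median log2 fold change of 0.04. The DESeq2 shares over all genes tested were 2.64% lower and 2.29% higher. At an unadjusted p under 0.05 in DESeq2, 5 of the 26 ligands were higher and 4 lower, where 6.98% of all genes tested were higher and 7.31% lower. The called ligand was PDGFB, which binds both platelet-derived growth factor receptors. It had 361, 378 and 351 normalized counts in EV libraries and 231, 241 and 200 in HMGB2OE libraries, with no overlap. Its log2 fold change of -0.70 (± 0.15 SE, adjusted p = 0.000327 in DESeq2) was called under every alternative. TGFA, an EGFR ligand, had the highest level of any ligand, at 501 ± 18.6 TPM in EV and 501 ± 23.7 TPM in HMGB2OE libraries (SD, n = 3), with a log2 fold change of 0.03 (95% interval -0.17 to 0.22). AREG, another EGFR ligand, had -0.05 (95% interval -0.34 to 0.25) and FGF2, a ligand of FGFR1, -0.27 (95% interval -0.52 to -0.03, DESeq2 adjusted p = 0.264). FGF2 was called with a term for the replicates numbered 3 (-0.27, DESeq2 adjusted p = 0.0405). GAS6 and PROS1, the ligands of AXL and its relatives, gave no call.

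IGF2, a ligand of IGF1R, divided the EV libraries and was chosen for description after its values were seen. It had 4.04 and 6.20 normalized counts in EV replicates 1 and 2 but 337 in EV replicate 3, against 283, 273 and 315 in HMGB2OE libraries. EV replicate 3 thus lay above all HMGB2OE libraries and the other EV libraries far below them. DESeq2 gave no p over all 6 libraries, since a count was marked as an outlier, and edgeR gave a log2 fold change of 1.36 (adjusted p 0.569). In replicates 1 and 2 alone the log2 fold change was 5.75 (± 0.50 SE, adjusted p = 5.93e-28 in DESeq2). KITLG, the ligand of KIT, was also chosen after its values were seen and had 112, 113 and 247 normalized counts in EV libraries and 260, 201 and 289 in HMGB2OE libraries. It was called in replicates 1 and 2 alone (log2 fold change 1.03, DESeq2 adjusted p = 0.000613) and not over all 6 (0.67, DESeq2 adjusted p = 0.249). KRT5 divided the libraries in the same way as IGF2, and its part in these differences was not tested.

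Genes that act next to the receptors were examined last. Of 56 adaptors, co-receptors, inhibitors, sheddases and IGF binding proteins, 54 received an adjusted p, and 2 were called higher and 3 lower, with a median log2 fold change of 0.01. Over all genes tested, 2.29% were called higher and 2.64% lower. Over all 6 libraries none of the 20 adaptors tested was called by DESeq2 or edgeR, nor any of the 5 partners of NGFR. At an unadjusted p under 0.05 in DESeq2, 4 adaptors and 1 partner of NGFR were higher and 3 adaptors lower, against the same 6.98% and 7.31% of all genes. In replicates 1 and 2 alone, 6 of the 56 genes were called higher and 8 lower. Over all genes tested in that fit, 8.01% were called higher and 9.44% lower. The genes named from that fit here were chosen after their values were seen. NRP1, NRP2 and IGF2R were called lower, at log2 fold changes of -0.28, -0.20 and -0.27. The adaptors IRS2 (log2 fold change -0.50, DESeq2 adjusted p = 5.52e-10) and GAB2 (-0.44, 0.00181) were lower there. The adaptors GAB1 (0.47, DESeq2 adjusted p = 0.0437) and PIK3R3 (0.37, 0.0280) and the NGFR partner MAGED1 (0.26, 0.00114) were higher. MAGED1 was also called with a term for the replicates numbered 3 (0.27, DESeq2 adjusted p = 0.000127).

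IGF binding proteins, which hold insulin-like growth factors outside the cell, gave 2 calls higher and 1 lower among 7. Over all genes tested the shares were 2.29% higher and 2.64% lower. IGFBP5 rose from 1282, 1280 and 1226 to 4010, 4399 and 3802 normalized counts, a log2 fold change of 1.69 (± 0.11 SE, adjusted p = 5.97e-54 in DESeq2) that was called under every alternative. EV replicate 3 did not stand apart for this gene. IGFBP6 had 5639, 5801 and 6604 normalized counts in EV libraries and 7930, 8269 and 8796 in HMGB2OE libraries (log2 fold change 0.47, SE 0.11, DESeq2 adjusted p = 0.000801), and lost its call without EV replicate 1 (0.0757) or HMGB2OE replicate 3 (0.0546). IGFBP4 had 13868, 12435 and 11763 normalized counts in EV libraries and 9471, 10646 and 9644 in HMGB2OE libraries (log2 fold change -0.36, SE 0.11, DESeq2 adjusted p = 0.0299). Its call was lost under edgeR (0.0901), with no independent filter (0.0519) and without EV replicate 1 (0.436) or 2 (0.163) or HMGB2OE replicate 1 (0.402), 2 (0.0951) or 3 (0.291).

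The inhibitors gave 2 calls among 15, both lower, where 2.64% of all genes tested were called lower. GRB10, an adaptor that restrains the insulin and IGF1 receptors, fell from 2676, 2665 and 1935 normalized counts in EV libraries to 1567, 1411 and 957 in HMGB2OE libraries (log2 fold change -0.89, SE 0.20, DESeq2 adjusted p = 0.000477, edgeR adjusted p 0.0505). RNF41, a ubiquitin ligase that lowers ERBB3 protein, had 10729, 9960 and 12225 normalized counts in EV libraries and 8695, 8444 and 8518 in HMGB2OE libraries (log2 fold change -0.36, SE 0.11, DESeq2 adjusted p = 0.0277). Its call was lost under edgeR (0.0927) and without EV replicate 1 (0.206) or HMGB2OE replicate 1 (0.253), 2 (0.253) or 3 (0.232). ERRFI1, a feedback inhibitor of EGFR and the most abundant of these genes at 453 TPM, had a log2 fold change of 0.16 (95% interval -0.05 to 0.38). It was called without EV replicate 3 (0.24, DESeq2 adjusted p = 0.0273), with a term for the replicates numbered 3 (0.17, DESeq2 adjusted p = 0.0260) and in replicates 1 and 2 alone (0.20, DESeq2 adjusted p = 0.00568). BEX3, a partner of NGFR at 361 TPM in EV and 388 TPM in HMGB2OE libraries, had 0.14 (95% interval -0.06 to 0.33).

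**Figure D4:**
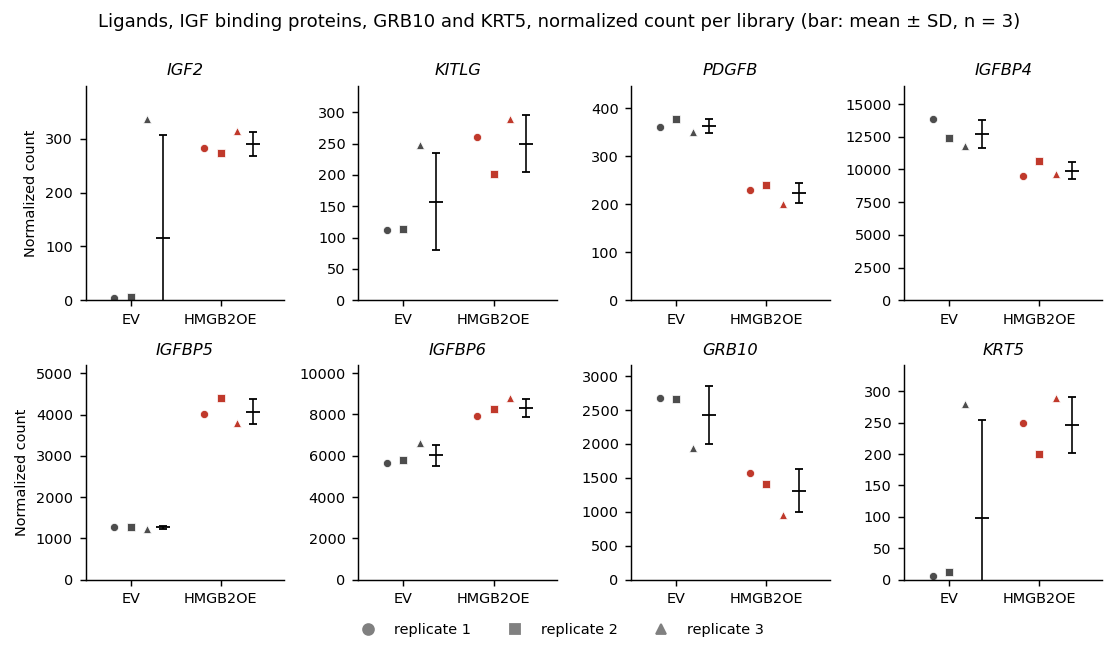
Normalized counts (y axis, from 0) in each EV (grey) and HMGB2OE (red) library for 3 ligands, 3 IGF binding proteins, GRB10 and the epithelial marker KRT5, with the mean and SD (n = 3), whose lower bar is cut at 0 for IGF2 and KRT5. IGF2 and KRT5 are near 0 only in EV replicates 1 and 2 of these 6 libraries, while IGFBP5 and PDGFB separate the groups with all 3 EV libraries close together.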

How the data were processed

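RNA was selected by its poly(A) tail and sequenced from 3 EV and 3 HMGB2OE libraries of A375 cells. The authors trimmed reads with Trimmomatic, aligned them to hg38 and deposited raw read counts per gene in the layout of STAR, with the STAR version and annotation release not given in the sources used here. The either-strand column was used. Reads that fall in more than 1 gene are set aside there, which undercounts genes that overlap others. Symbols, coordinates and exon lengths came from GENCODE 44, to which 57532 IDs matched, and TPM was computed from the counts and the union of exons. As in the methods of the study, differences were fitted by DESeq2 (1.42.0, default settings, R 4.3.3), with unshrunken log2 fold changes and 95% Wald intervals. The DESeq2 group fit was tested on counts simulated from the EV means and its own fitted dispersions. Such counts follow the model by design, and no result of the test is used here. No library was shifted there as EV replicate 3 was, so the test does not cover such a shift. Alternatives were edgeR 4.0.16, TMM factors, a filter of 10 counts in 3 libraries, independent filtering turned off, stranded columns summed, the replicate block, a term for the replicates numbered 3, replicates 1 and 2 alone, and leaving out each library. The receptors, lists and alternatives were chosen with earlier results of these data known. Named genes were HMGB2, the 10 receptors and, from each other list, all called genes and the 3 with the highest TPM.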

Additional observations from a re-analysis of the deposited data

Results flagged for a closer look

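From the lists, 5 genes drew attention because the stranded columns, which the main comparisons do not use, held reads that the either-strand column set aside. Each kept under 10% of its stranded reads. Over the 6 libraries the sum of the stranded columns held 11063 reads for EPHA1, a receptor tyrosine kinase, 253416 for SOX10, 10158 for PMEL, 47661 for S100A1 and 1340 for CD68. The low values of EPHA1 in the comparison of kinases therefore do not show that its transcript was scarce, and reads of the gene on the other strand cannot be told apart from its own in that sum.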

How the results depend on the processing

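The calls of AXL, NGFR, EPHA2, EPHA7, PDGFB, IGFBP5 and HMGB2 held under all 14 alternatives, and over named genes and alternatives 345 values kept their direction and side of the threshold, 10 gained a call, 38 lost one and 15 changed sign. Counts below are higher and then lower, against 0 and 2 for the receptors, 4 and 4 for other kinases, 0 and 1 for ligands, 2 and 3 for adaptors and inhibitors and 432 and 498 for all genes. With edgeR, 2 kinases and 0 adaptors and inhibitors were lower, and 215 and 255 genes were called. With the stranded columns summed 1 ligand was higher, and 445 and 573 genes were called. The number of genes tested differed between fits (18836 in the main fit, 15028 in replicates 1 and 2 alone), so these counts are not shares. With the replicate block, 3 receptors were lower, ERBB3 being added (-0.20, DESeq2 adjusted p = 0.0349), 2 ligands were higher, 5 and 5 adaptors and inhibitors were called, and 886 and 940 genes. Deviations of same-numbered libraries correlated at 0.0906, 0.142 and 0.349, and EV replicate 1 with HMGB2OE replicate 2 at 0.212, so the numbers were not taken as pairs. The value of 0.349 belongs to the replicates numbered 3. Each of these correlated negatively with replicates 1 and 2 of the other group (-0.272 to -0.137). Deviations were taken from the group means, so these negative values partly follow from the value of 0.349 and are no separate result. A term for the replicates numbered 3 gave 3 receptors lower, ERBB3 being added (-0.20, DESeq2 adjusted p = 0.00493). With that term the counts were 2 and 2 for ligands, 8 and 6 for adaptors and inhibitors and 1374 and 1359 for all genes. In replicates 1 and 2 alone, 4 receptors were lower, 2 kinases and 2 ligands higher, 6 and 8 adaptors and inhibitors were called, and 1203 and 1418 genes. With the longest transcript 6 receptors kept their rank. Leaving out 1 library gave 2 to 4 receptors lower, 2 to 4 kinases higher and 1 to 5 lower, 0 to 2 ligands higher and 1 to 2 lower, 1 to 4 adaptors and inhibitors higher and 1 to 10 lower, and 155 to 1334 genes higher and 208 to 1520 lower, with the highest counts of all genes without EV replicate 3. The cause was not tested.

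Sign changes were confined, among named genes, to values near 0 that passed no test. PDGFRB was -0.00173 with edgeR, -0.00475 with TMM factors, -0.00224 with stranded columns summed, -0.0325 in replicates 1 and 2 alone and -0.0850 to 0.0521 on leaving out 1 library. IGF1R was 0.00412 with the replicate block and 0.00178 with the term for the replicates numbered 3. On leaving out 1 library, IGF1R ranged from -0.290 to 0.156, FGFR1 from -0.0347 to 0.174, TGFA from -0.0212 to 0.0964 and AREG from -0.126 to 0.0183. Depth limits KIT, with 29 reads, and pellets of 1 line per group limit all p-values.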
